A study of Drosophila melanogaster with 4 samples.

Results

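HP1c-enriched regions on chromosome arm 3L are described here, as mapped in Drosophila melanogaster by ChIP-seq, the sequencing of DNA that comes down with an antibody to a chromatin protein. The members are all regions that the authors listed as enriched on 3L, with the heterochromatin scaffold 3LHet left out. The list of the replicate set, called the combined list, held 1339 of them among 6891 regions in all. The list of ChIP replicate 1 held 1094 of 5586 and that of ChIP replicate 2 held 1149 of 5946. No measured value other than the authors' own calls entered this choice.

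The animals were wild-type Oregon-R larvae of the third instar, and all samples shared this strain, genotype and stage. There were 2 HP1c ChIP libraries and 2 input DNA libraries, and region lists of the ChIP libraries alone were analysed here. Precipitation used a polyclonal rabbit antibody, affinity-purified, against a fragment of HP1c made in bacteria. Per the labels' protocols, larvae were collected from bottles and their tissue was homogenised, so each list averages over cell types. Neither the sex of the larvae nor the tissues taken are stated.

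HP1 proteins carry a chromodomain, which in the founding member HP1a binds methylated lysine 9 of histone H3, and a chromoshadow domain through which they pair and recruit partners. HP1a is the main HP1 protein of pericentric heterochromatin, whereas HP1c is known from euchromatin, where it works with the zinc finger proteins WOC and ROW at active genes. On 3L, position 1 lies at the telomere and the assembled sequence ends in pericentric chromatin. Positions below are in FlyBase release 5, and genes at the regions were not analysed because the annotation used here is of release 6.

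HP1c regions on 3L were short, numerous and spread over the whole arm. They covered 11.3% of its 24.5 Mb in replicate 1 and 12.2% in replicate 2, a mean of 11.8% ± 0.65 (SD, n = 2). There were 44.6 and 46.8 regions per Mb, a mean of 45.7 ± 1.6. The median region measured 2260.5 bp in replicate 1 and 2275 bp in replicate 2, against 2262 and 2304 bp over all sequences. The arm is 14.5% of the sequence named in the file headers and carried 19.4% of the combined regions. Its share was 19.6% in replicate 1 and 19.3% in replicate 2. The sequence in the headers also counts scaffolds such as 3LHet, so these shares do not set 3L against the other main arms. In the combined list 3L held 54.6 regions per Mb, beside 50.0 on 2L and 51.2 on 3R.

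The autosomal arms most like it gave similar levels. Coverage was 11.2% ± 0.90 (SD, n = 2) on 2L and 11.3% ± 0.91 on 3R. The means of the 3 arms differed by less than 1 SD, but this SD is over libraries that the arms share. In replicate 1 coverage was 11.3% on 3L, 10.5% on 2L and 10.6% on 3R. In replicate 2 it was 12.2%, 11.8% and 11.9%, so 3L was highest in each. Region numbers were 42.0 ± 2.2 per Mb on 2L and 43.8 ± 2.3 on 3R, below 3L in each replicate. With 2 values an arm, an exact two-sided permutation test that takes them as unpaired cannot give a p below 0.333. The values are in fact paired by library, and no difference between arms was tested. Median scores, on a scale of the authors' own that was not given in the sources used here, were 0.74 on 3L, 0.81 on 2L and 0.81 on 3R in the combined list. Regions wider than 5000 bp numbered 63 in the combined list (4.71%), beside 5.48% on 2L, 4.06% on 3R and 5.94% over all sequences. They made up 3.47% of the 3L regions in replicate 1 and 4.35% in replicate 2, beside 4.56% and 5.68% over all sequences.

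HP1c coverage was uneven along 3L. Over the 24 full windows of 1 Mb it ranged from 5.43% to 20.2%, a 3.71-fold range. The spread between replicates was far smaller, with a median SD of 0.61 percentage points and a largest SD of 1.9. The densest window lay from 16 to 17 Mb. It was covered to 20.0% in replicate 1 and 20.4% in replicate 2 and held 90 combined regions. The next were the windows from 3 to 4 Mb, with 16.4% and 18.2%, and from 11 to 12 Mb, with 15.9% and 18.0%. The sparsest full windows were those from 23 to 24 Mb, with 5.36% and 5.51%, from 22 to 23 Mb, with 4.82% and 6.11%, and from 5 to 6 Mb, with 6.65% and 8.06%.

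**Figure D1:**
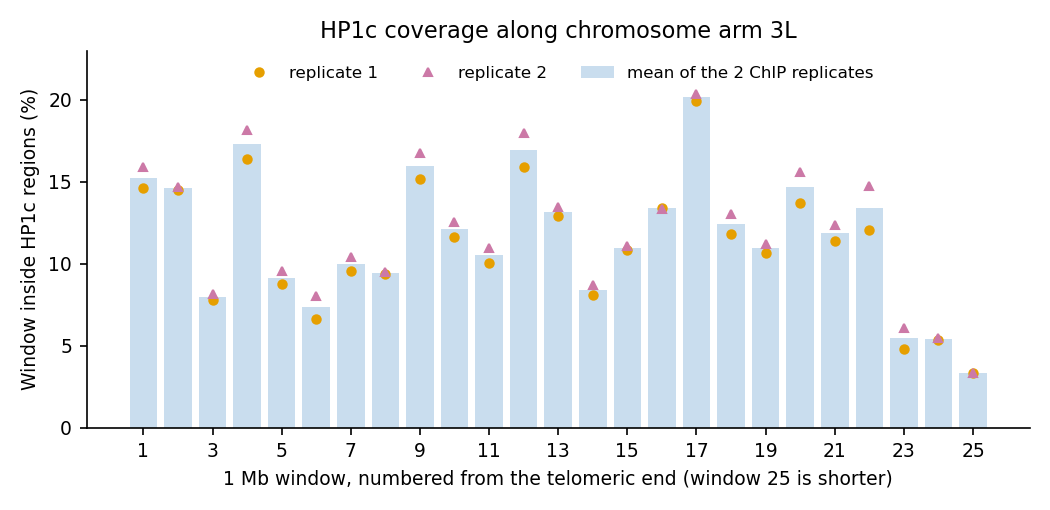
Percent of each 1 Mb window of 3L that lies inside HP1c regions, with windows numbered from the telomeric end; bars are the mean of the ChIP replicates and symbols are the single replicates. Window 17 reached 20.2%, and windows 23 and 24, next to the centromeric end, stayed at 5.47% and 5.43%.

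Dense windows were those with many regions. Across the 24 windows the coverage followed the number of combined regions (Spearman rho 0.96), while rho was -0.20 for their median width and -0.10 for their median score. Coverage is built from number and width, and median widths ranged only from 2084 to 2404 bp. The rho with number is thus largely by construction. With the median scores of the replicate lists, ranked and summed, rho was -0.37. The densest window had a median score of 0.53 in the combined list, against 0.74 for the whole arm. Its medians in the replicates were 0.64 and 0.83, against 0.90 and 1.10 for the arm. The replicates had nearly the same profile (Pearson r 0.98, Spearman rho 0.99), with replicate 2 higher in 23 of the 24 windows. These correlations are over neighbouring windows of the same libraries and describe them only.

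HP1c regions thinned out towards the centromeric end of 3L. The stretch from 22 Mb to the end, 2.54 Mb or 10.4% of the arm, was chosen after the window profile had been seen. It was covered to 4.71% in replicate 1 and 5.29% in replicate 2, while the arm before it was covered to 12.1% and 13.0%. It held 61 of the 1339 combined regions, or 4.56%. The last 1 Mb, a stretch set without regard to the profile, was covered to 4.12% and 3.92%, against 14.6% and 15.9% for the first 1 Mb at the telomeric end. The regions that were present there were wide, with medians of 2506.5 bp in replicate 1 and 3283 bp in replicate 2. How reads from repeats were treated was not given in the sources used here, and its part in the low coverage was not tested.

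Strong HP1c regions nevertheless lay close to the centromeric end. The last region of the arm, 3L 24525702 to 24532916, ended 10641 bp before the end of the sequence and was 7215 bp wide. It scored 2.95 in replicate 1 and 2.76 in replicate 2, and its combined score of 2.70 ranked 95 of 1339. A second, 3L 24019428 to 24023606, scored 2.95 and 2.97, with ranks of 38 and 94 in the replicates. Another, 3L 23705292 to 23709318, scored 2.64 and 2.86, with ranks of 83 and 114. These 3 were picked out among the 17 combined regions of the last 1 Mb after their scores had been seen.

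The strongest HP1c regions of the arm were chosen by combined score among those overlapping both replicates. High ranks in each replicate thus follow in part from the choice. The first 10 had widths of 2479 to 3793 bp. The median was 2475 bp over the 961 regions overlapping both and 2233 bp over all combined regions of the arm. The highest, 3L 21720594 to 21723102, scored 3.78 in replicate 1 and 4.25 in replicate 2 and ranked 1 in both. The next, 3L 15974858 to 15977336, scored 3.65 and 4.14 and ranked 3 and 2. The one after it, 3L 2261498 to 2264060, scored 3.61 and 3.87 and ranked 4 and 6. The highest pair of these regions thus stood within the first 3 places of each replicate.

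The other 7 ranked from 5 to 23 in replicate 1 and from 3 to 13 in replicate 2. In order of combined score, the first was 3L 16579046 to 16582838 (score 3.61). Behind it came 3L 13956732 to 13959468 (score 3.59), then 3L 12269242 to 12272014 (score 3.58). A score of 3.57 was shared by 3L 15580112 to 15583112, 3L 9418690 to 9421226 and 3L 17838528 to 17841340. The last was 3L 13505126 to 13507614 (score 3.53). Of these 7, the last differed most in rank between the replicates, at 23 and 3. For each of the 10, the nearest other combined region was 215 to 7525 bp away.

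The 5 widest HP1c regions scored above the combined median of the arm, 0.74, and below its strongest regions. The widest, 3L 16995642 to 17005968, measured 10327 bp and ranked 346 by combined score. In replicate 1 it was a single region scoring 1.61, and in replicate 2 it was split into 3 regions, the strongest of which scored 1.92. The next, 3L 10841924 to 10851670, measured 9747 bp and ranked 322, with 1 region of score 1.56 in replicate 1 and 2 in replicate 2, the stronger at 2.03. The highest score among the 5 was at 3L 11283648 to 11292940, 9293 bp wide, which was 1 region in each replicate, scored 2.97 and 3.07 and ranked 37 and 79. The remaining regions of the 5 widest, 3L 11338238 to 11347408 with 9171 bp and 3L 3191436 to 3200294 with 8859 bp, were each made of 2 regions in both replicates. Of these 5 regions 2 lay between 11 and 11.5 Mb, the densest 0.5 Mb window of the arm.

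Score and width were related in 3 different ways along the range of widths. Classes of width were set after the plot of the combined list had been seen. From 1800 to 2500 bp the score climbed steeply with width, with a Spearman rho of 0.89 over 553 regions in replicate 1 and 0.91 over 614 in replicate 2. Above 2500 bp there was almost no relation, with rho -0.13 over 380 regions and -0.11 over 418. Up to 1800 bp the score went the other way, with rho -0.21 over 161 regions, -0.36 over 117 and -0.65 over 251 regions of the combined list. Over all widths together rho was 0.77 and 0.78 in the replicates. These values are across regions of one library and carry no test.

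**Figure D2:**
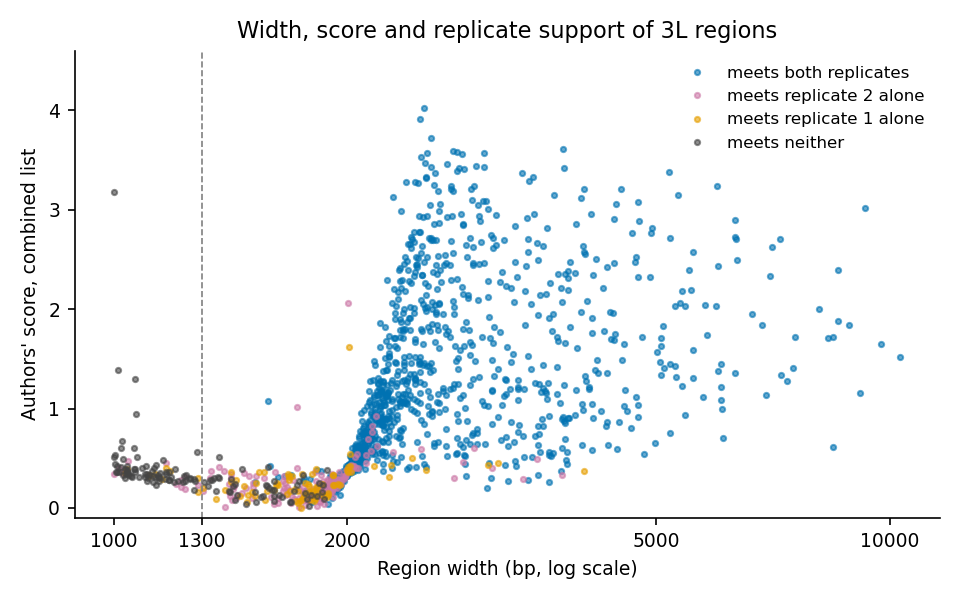
Width in bp (log axis) against the authors' score for the 1339 combined regions on 3L, coloured by which replicate lists they overlap, with a dashed line at 1300 bp. Scores climb steeply near 2000 bp, and the region with 3.18 at 1001 bp stands alone at the upper left.

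Most HP1c positions on the arm were shared by the replicates. On 3L, 981 of 1094 regions of replicate 1 (89.7%, exact Clopper-Pearson 95% interval 87.7 to 91.4) overlapped a region of replicate 2 by at least 1 bp, against 90.4% over all sequences. In the other direction 974 of 1149 (84.8%, 82.6 to 86.8) did so, against 83.7% over all sequences. Both shares lie near those of the whole lists. For replicate 1 the share was 91.6% on 2L and 92.4% on 3R, above 3L. For replicate 2 it was 83.5% and 84.7%, not above 3L. The lists shared 2.48 Mb of the 3.30 Mb covered by either, a base-pair Jaccard index of 0.75, with 0.76 on 2L and on 3R. Intervals cover counting error over regions only, and read numbers are unknown.

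Region borders lay close together in the replicates. There were 937 pairs in which 1 region of each replicate met no other. Their starts differed by a median of 59 bp and their ends by a median of 61 bp, and in 449 pairs (47.9%) both ends lay within 100 bp. No pair had both ends identical. The region of replicate 2 was the wider one in 598 pairs (63.8%), by a median of 58 bp over all pairs. In 922 pairs at least 90% of the narrower region was shared.

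The order of strength was largely shared by the replicates. Across the 937 pairs the scores had a Spearman rho of 0.88, given as a description. Of the first 100 regions of replicate 1 by score, 77 overlapped one of the first 100 of replicate 2, and of the first 10, 5 did so. The largest shift in rank was at 3L 12507080 to 12509027 in replicate 1, which scored 0.38 there and 1.72 in replicate 2. The next, 3L 16595109 to 16597002, scored 0.32 and 1.47. The last of these 3, 3L 8391315 to 8393444, went the other way, with 1.44 in replicate 1 and 0.53 in replicate 2.

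**Figure D3:**
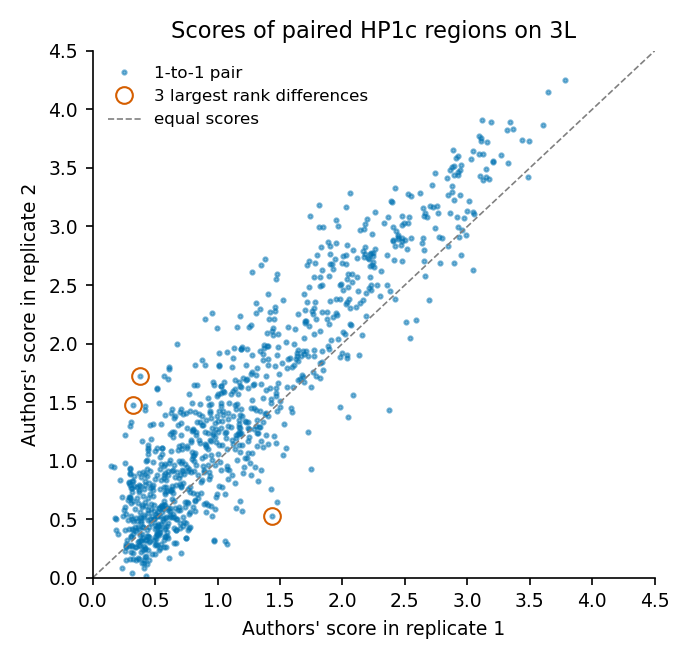
Authors' scores of the 937 pairs of 3L regions that met 1-to-1, replicate 1 against replicate 2, with the line of equal scores and the 3 pairs of largest rank difference circled. Points run along the line, mostly above it, with a Spearman rho of 0.88.

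The combined score stood close to the mean of the replicate scores where both had a region. In 921 cases 1 region of each of the 3 lists met 1-to-1. The median combined score minus the mean of the replicate scores was -0.01, and 90% of these differences lay between -0.14 and 0.073. The combined score lay between the replicate scores in 763 cases, below both in 153 and above both in 5. Where a combined region met 1 replicate alone, its score was lower than that of replicate 1 in 84 of 87 cases, by a median difference of -0.23, and lower than that of replicate 2 in 148 of 160 cases, by a median difference of -0.14. Replicate 2 scored higher than replicate 1 in 676 of the 921 cases, and whether the lists share 1 scale was not stated in the sources used here.

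Of the 1339 combined regions on 3L, 961 (71.8%, exact 95% interval 69.3 to 74.2) overlapped both replicates, against 71.1% over all sequences. Replicate 2 alone was met by 164 (12.2%), against 13.2%. Replicate 1 alone was met by 92 (6.87%), against 6.34%, and 122 (9.11%) met neither, against 9.32%. All 4 shares were close to the background. The 961 regions in both measured 2475 bp and scored 1.14 (medians), while the 122 in neither measured 1197 bp and scored 0.30.

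Overlap with both replicates was rare among weak regions and near complete among strong ones. The combined regions were divided by score into 5 parts of 267 or 268. In the lowest part, with scores up to 0.29, 49 of 268 (18.3%, exact 95% interval 13.8 to 23.4) overlapped both, beside 18.3% in the lowest part of the whole list. In the next, with scores up to 0.53, the count was 132 of 268 (49.3%, 43.1 to 55.4). In the middle part, with scores up to 1.04, it was 249 of 267 (93.3%, 89.6 to 96.0). In the part above it was 265 of 268 (98.9%), and in the highest part 266 of 268 (99.3%), beside 98.2% in the highest part of the whole list. Replicate support thus changed mostly between scores of 0.29 and 1.04. Where both replicates had a region, the combined score stood close to the mean of their scores. Score and overlap were therefore not independent measures.

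**Figure D4:**
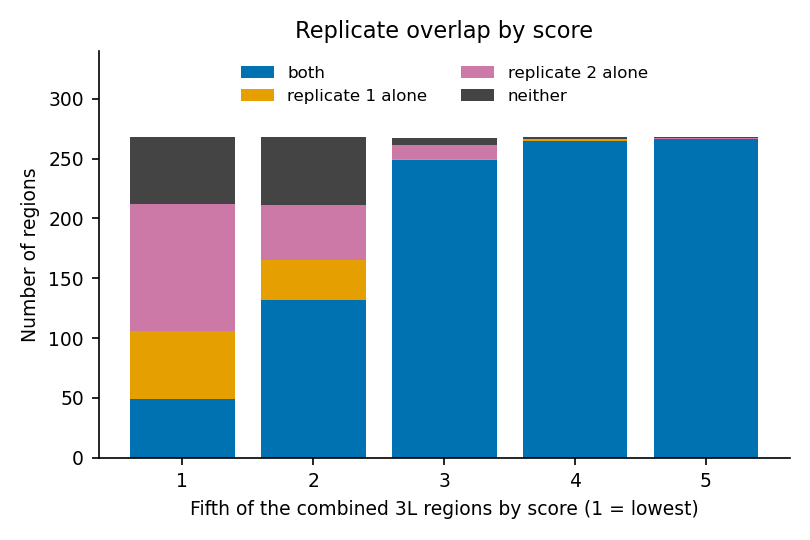
Number of combined 3L regions in 5 parts of equal size by score, stacked by overlap with both replicates, replicate 1 alone, replicate 2 alone or neither. The count overlapping both climbs from 49 in the lowest part to 266 in the highest.

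A class of narrow regions existed in the combined list and in neither replicate list. The narrowest region on 3L measured 1305 bp in replicate 1 and 1304 bp in replicate 2, but 1001 bp in the combined list. Of the 1339 combined regions, 95 were narrower than 1300 bp (7.09%), against 7.36% over all sequences. None of the 95 overlapped both replicates, and none of the 507 in the whole list did (0% called). On 3L, 73 met neither replicate (76.8%, exact 95% interval 67.1 to 84.9), against 74.4% in the whole list, 10 met replicate 1 alone and 12 met replicate 2 alone. Their scores had a median of 0.34 and quartiles of 0.30 and 0.40. Wider 3L regions with scores between the same quartiles overlapped both replicates in 51 of 98 cases (52.0%). How the combined list was built was not given in the sources used here.

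**Figure D5:**
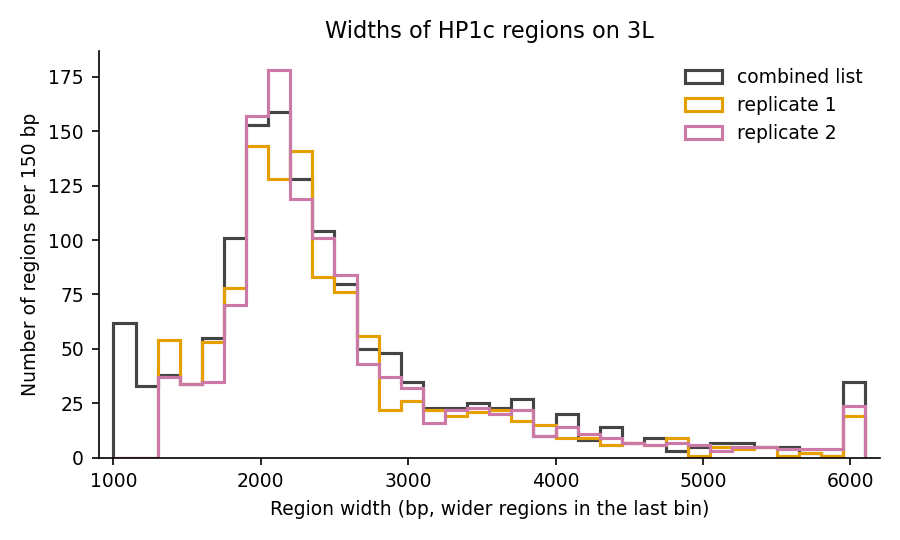
Histogram of region widths on 3L in bins of 150 bp for the combined list and each ChIP replicate, with wider regions gathered in the last bin. All lists peak near 2000 bp, and the combined list alone has regions below 1300 bp.

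A few regions up to 2100 bp wide had high scores, and nearly all of them lacked support in a replicate. Limits of width and score were chosen after the plot of width and score had been seen. Of the 555 combined regions on 3L that scored above 1, 548 were wider than 2100 bp, and all 548 overlapped both replicates, against 99.8% in the whole list. The other 7, or 1.29% of the 543 regions up to 2100 bp wide, measured 1001 to 2011 bp, and 3 of them were narrower than 1300 bp. Of the 7, 1 overlapped both, against 7.35% in the whole list. That one, 3L 21491900 to 21493478, scored 1.58 in replicate 1 and 1.45 in replicate 2.

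The first of the remaining 6, 3L 7682280 to 7683280, was 1001 bp wide and scored 3.18, rank 40 of the arm, with no region in either replicate. The nearest replicate region was 27339 bp away. Neither replicate listed the regions at 3L 118434 to 119446, which scored 1.38, and 3L 9123674 to 9124738, which scored 1.30. A region at 3L 5451256 to 5453266 scored 1.61 and met replicate 1 alone, where it scored 1.94 and lay 89096 bp from any region of replicate 2. Another, 3L 23513870 to 23515874, scored 2.06 and met replicate 2 alone, where it scored 2.04 and lay 56580 bp from any region of replicate 1. The last, 3L 23068026 to 23069750, scored 1.02 and met replicate 2 alone, where it scored 1.62.

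Regions found in 1 replicate alone were otherwise weak. Replicate 1 had 113 such regions on 3L, with a median score of 0.45 against 1.03 for those that were overlapped. In replicate 2 there were 175, with 0.36 against 1.29. Only 1 of the 113 and 4 of the 175 scored above the median of their 3L list. By the rule for named regions, the strongest after those above were 3L 877619 to 880265 and 3L 9475235 to 9479077 in replicate 1, scoring 0.90 and 0.77, and 3L 15960011 to 15962218 in replicate 2, scoring 1.36.

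Replicate overlap was least frequent in the windows nearest the centromeric end, at 46.2% from 23 to 24 Mb and 44.4% of 9 regions beyond. The share was 65.4% from 22 to 23 Mb, beside 63.9% from 5 to 6 Mb and 64.9% from 9 to 10 Mb. From 22 Mb on, 33 of 61 combined regions (54.1%, exact 95% interval 40.8 to 66.9) overlapped both replicates, against 928 of 1278 (72.6%, 70.1 to 75.04) before it. The intervals cover counting error over regions of the same libraries only. The stretch was chosen after seeing the profile, and no test was made. In the last 1 Mb the count was 9 of 17 (52.9%, 27.8 to 77.0) and in the first 1 Mb 51 of 78 (65.4%, 53.8 to 75.8). The median combined score was 0.60 in the last 1 Mb, against 0.75 in the arm between the ends. The replicate lists went the other way, with medians of 0.97 and 1.53 in the last 1 Mb against 0.90 and 1.10 between the ends, over 14 and 10 regions of the last 1 Mb. Divided into 3 parts of equal length, the arm gave shares of 72.3%, 72.5% and 70.3% from the telomere on.

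Neighbouring HP1c regions on 3L formed short runs. Joined where less than 5 kb apart, 886 of the 1339 combined regions (66.2%) fell into 301 runs of at least 2, with a median length of 9333 bp, and 453 stood alone. The share was 66.6% on 2L, 67.9% on 3R and 68.5% over all sequences. It depends on the distance chosen, with 42.0% of the 3L regions in runs at 2 kb and 82.7% at 10 kb. Runs of 5 or more regions numbered 32 at 5 kb, 5 at 2 kb and 72 at 10 kb. The median score was 0.91 over 195 regions in runs of 5 or more, 0.77 over 691 in runs of 2 to 4 and 0.60 over 453 single regions, with no test of the difference. The shares overlapping both replicates were 76.4%, 72.9% and 68.0% in the same order. The median distance between neighbouring regions was 7719 bp in replicate 1 and 7734 bp in replicate 2.

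The run with most regions held 12 combined regions over 39.8 kb at 3L 745610 to 785394, of which 5 overlapped both replicates and 6 met neither, with scores from 0.070 to 1.28. The next run, at 3L 9412354 to 9456686, held 9 regions over 44.3 kb, of which 7 overlapped both, with scores from 0.12 to 3.57. It contains the eighth-ranked region of the arm, at 9418690. A run at 3L 12103662 to 12143352 also held 9 regions, 7 of them in both replicates, over 39.7 kb, with scores from 0.23 to 2.89.

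Several long stretches without any HP1c region lay at the centromeric end of the arm. Counting only places where all 3 lists were empty, 8 stretches between regions exceeded 150 kb and made up 7.40% of the arm. Of these, 4 began after 22 Mb, within 10.4% of the arm's length. The longest, 404 kb from 13507615 to 13911765, lay in the middle of the arm. It was bordered on the telomeric side by one of the 10 strongest regions, 3L 13505126 to 13507614, and on the other side by a region overlapping both replicates with a combined score of 1.14. The next were 296 kb from 24227257 to 24523045 and 244 kb from 22465799 to 22709321. The latter ended beside a replicated region with a combined score of 2.86 and a rank of 72.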

How the data were processed

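ChIP-seq regions of HP1c were taken from 3 deposited lists. Bowtie 0.12.7 aligned the reads, per the submitters' processing notes. Per the file headers, positions are in FlyBase release 5. The authors deposited 1 score per region. The caller, threshold and scale of the score, and how the combined list was made, were not given in the sources used here. Depth is unknown. Overlap between lists required 1 shared bp. Coverage, numbers and medians were computed for each replicate, with mean ± SD. Nothing in the labels says that replicates came from separate cultures, so this spread may be technical. Regions in 1 Mb windows were placed by their midpoint. Regions named by position followed fixed ranks (the 10 strongest, 5 widest, 3 strongest lacking overlap, 3 longest gaps, 3 largest runs, windows and rank differences). Regions of the last 1 Mb and high-scoring regions up to 2100 bp wide were instead chosen after their values were seen. Members and lists were chosen with earlier results of these data known. No sequence was printed, since no genome of release 5 was at hand. Counting steps were tested on simulated data. Alternatives were reciprocal overlap of 50%, the upper 50% by score, merging within 500 bp, trimmed arm ends, other windows and limits, and single replicates. Python 3.11.15, pandas 2.3.3 and SciPy 1.17.1 were used.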

Additional observations from a re-analysis of the deposited data

How the results depend on the processing

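Of 36 alternatives to values with a replicate SD or an interval, 23 stayed within it and 13 moved beyond it. The 23 include the single replicates, which with n = 2 lie within 1 SD of their mean by construction. Of 4 for the Jaccard index and the rho of replicate scores, 2 were equal at 2 decimals. Of 3 for counts of runs and gaps, the 2 for runs (241 at 2 kb and 280 at 10 kb, against 301) were within 1.5 times. Shares of overlap with both replicates stayed within their interval in all 4 alternatives run. In the upper 50% by score the replicate lists were cut too. That alternative therefore cannot show how the share against the full lists depends on score. A reciprocal overlap of 50% lowered the share of replicate 1 regions met by replicate 2 to 86.9%, which the stricter rule must lower or keep. With the upper 50% by score of each list, coverage was 6.80%, the number of regions 22.0 per Mb, the median width 2609.5 bp, the Jaccard index 0.74, the rho of width with score 0.28 and the rho of the replicate scores 0.86; removing regions must lower the first pair of values, and for the others the cause was not tested. The combined list gave 13.9% coverage, 54.6 regions per Mb and a median width of 2233 bp, and the cause was not tested. Merging regions less than 500 bp apart gave 43.0 regions per Mb, a number that merging must lower or keep. The median width was then 2307.75 bp, and the cause was not tested. Windows of 0.5 Mb ranged from 2.21% to 24.8%, and the densest of 2 Mb reached 16.3%. There were 34 stretches over 100 kb. Single replicates gave coverage of 11.3% to 12.2%, 44.6 to 46.8 regions per Mb and median widths of 2260.5 to 2275 bp. For ChIP against input, no paired analysis was possible because the replicate numbers pair ChIP with input libraries, and no input list was analysed here. Values of the arms are paired by library and are given for each replicate above, but no paired test between arms was made. Without read numbers, the part of depth in regions missing from 1 replicate cannot be told.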

Other observations

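The combined list also holds 2 rows on 3L, of 11 in all, that carry the name of depletion, and these were not counted above. The row at 3L 11077028 to 11078774 has a score of -0.041 and meets no region of either replicate. The row at 3L 18080458 to 18082148 has a score of -0.096 and meets a region of replicate 2 that scores 0.11 and ranks 1142 of 1149 on the arm. Every combined region on 3L named as enriched ended on an even position.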
